A study of Mus musculus with 6 samples.

Results

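The mitochondrial ribosomal proteins are the nuclear-encoded proteins of the ribosome that works inside mitochondria. Their genes were taken by symbol, as every measured gene named Mrpl or Mrps followed by a number, and 76 of the 18193 genes measured met this rule, 47 of them Mrpl and 29 Mrps. Each gene was represented by the probe set with the highest mean over all 6 arrays. All 76 were kept, since no filter on low values was applied. Mrpl30 and Mrpl53 were not members because their probe sets carry a further gene symbol.

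The RNA came from the retinal pigment epithelium (RPE), the cell layer that supports the photoreceptors, of albino BALBc mice. All mice spent 1 week in the dark. The dark-adapted group of 3 arrays had no further treatment stated, and the light-damaged group of 3 arrays had 1.5 hours of white fluorescent light at 6000 lux, with RPE taken 24 hours later. Age and sex are not given, and neither is the number of mice behind each RNA sample, so the p-values measure only how far these RNA samples scatter, and that scatter may be technical. Values are log2 expression per probe set, and each difference is light-damaged minus dark-adapted on that scale.

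Mitochondrial ribosomes translate the few proteins that mitochondrial DNA encodes, all of them parts of the oxidative phosphorylation complexes. They have a small subunit, which reads the messenger RNA, and a large subunit, which forms the peptide bonds and holds the exit tunnel. Some of their proteins descend from bacterial ribosomal proteins, and others were added in mitochondria. The structural places named below are known from human and porcine mitochondrial ribosomes. RPE cells are rich in mitochondria and draw much of their energy from oxidative phosphorylation.

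In light-damaged RPE, 5 mitochondrial ribosomal protein genes rose, namely Mrps25, Mrpl52, Mrps28, Mrpl35 and Mrps18b, and 1, Mrpl58, fell. The rises ran from 1.36-fold to 1.81-fold, and Mrpl58 fell by 0.42 ± 0.09 (SE, n = 3 pairs) on the log2 scale. The calls were made in limma with the replicate number as a block, at a Benjamini-Hochberg adjusted p under 0.05 over all genes. The 6 calls were 7.89% of the 76 genes, against 4.99% of all genes called. Rises were called in 3.07% and falls in 1.92% of all genes. The share of members called is thus near the background and is no result about the group. Without the block limma called none of the 76 (7 had an unadjusted p under 0.05, against 5.94% of all genes, and the smallest adjusted p = 0.40, for Mrps25) and 0.0495% of all genes.

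Mrps25, a mitochondria-specific protein of the small subunit, had the largest difference. Its log2 values were 9.34, 9.13 and 9.24 in dark-adapted replicates 1, 2 and 3 and 9.66, 10.13 and 10.49 in the light-damaged ones. The groups did not overlap, and the light-damaged arrays spread far more than the dark-adapted ones. The difference was 0.86 ± 0.17 (SE, n = 3 pairs; limma adjusted p = 0.0458), with 0.32, 1.00 and 1.24 in pairs 1, 2 and 3. A dimmer probe set of Mrps25 gave 0.65 (adjusted p = 0.0471 over all probe sets) and the dimmest 0.11.

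Mrpl52, a mitochondria-specific protein of the large subunit, rose 1.47-fold. It measured 11.26, 10.59 and 10.53 in the dark-adapted arrays and 11.95, 10.98 and 11.12 in the light-damaged arrays. The groups overlapped, with both replicate 1 arrays high, but every light-damaged array lay above the dark-adapted array of its own number. The difference was 0.56 ± 0.10 (limma adjusted p = 0.0307, n = 3 pairs). Of its 3 further probe sets, 2 of intermediate level gave larger differences, 1.16 ± 0.11 and 1.09 ± 0.11 (adjusted p = 0.0052 and 0.0057 over all probe sets), and the dimmest gave 0.02.

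Mrps28, which stands in the place of bacterial ribosomal protein S1 in the small subunit, rose 1.45-fold. It went from 8.90, 9.22 and 9.50 to 9.63, 9.72 and 9.87, so that the lowest light-damaged array lay just above the highest dark-adapted one. The difference was 0.53 ± 0.10 (limma adjusted p = 0.0377, n = 3 pairs). Mrpl35, a large subunit protein with a bacterial counterpart, rose 1.40-fold. Its values were 9.88, 9.60 and 9.91 against 10.48, 10.09 and 10.26, with no overlap of the groups, and the difference was 0.48 ± 0.09 (adjusted p = 0.0388). The call of Mrpl35 was that of its brightest probe set only. Its 2 dimmer probe sets gave 0.17 ± 0.08, in the same direction, and -0.04 ± 0.15 (limma adjusted p = 0.362 and 0.939 over all probe sets). With the mean of all its probe sets the difference was 0.21 (adjusted p = 0.264).

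Mrps18b belongs to a trio of paralogs related to bacterial ribosomal protein S18, of which the products of Mrps18b and Mrps18c sit in the small subunit and that of Mrps18a in the large subunit. Mrps18b rose 1.36-fold, from 8.78, 9.18 and 9.17 to 9.29, 9.56 and 9.62, without overlap (0.44 ± 0.09, limma adjusted p = 0.0407, n = 3 pairs). Mrps18c averaged 10.31 ± 0.28 in dark-adapted and 10.52 ± 0.34 in light-damaged arrays (SD, n = 3), with overlapping groups. Its difference of 0.21 ± 0.09 went the same way in 3 of 3 pairs and did not pass (adjusted p = 0.268). Mrps18a had a difference of -0.14 ± 0.10 and did not pass (adjusted p = 0.537). Whether the paralogs differ from each other in response was not tested.

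Mrpl58, also known as Ict1, is a peptidyl-tRNA hydrolase that is built into the large subunit and is known, from human cells, to release peptides from stalled ribosomes. It went from 11.54, 10.92 and 11.30 to 11.18, 10.51 and 10.80. The groups overlapped, and each light-damaged array lay below its pair. The difference was -0.42 ± 0.09 (limma adjusted p = 0.0471, n = 3 pairs), and its second probe set gave -0.39 (adjusted p = 0.102 over all probe sets).

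**Figure D1:**
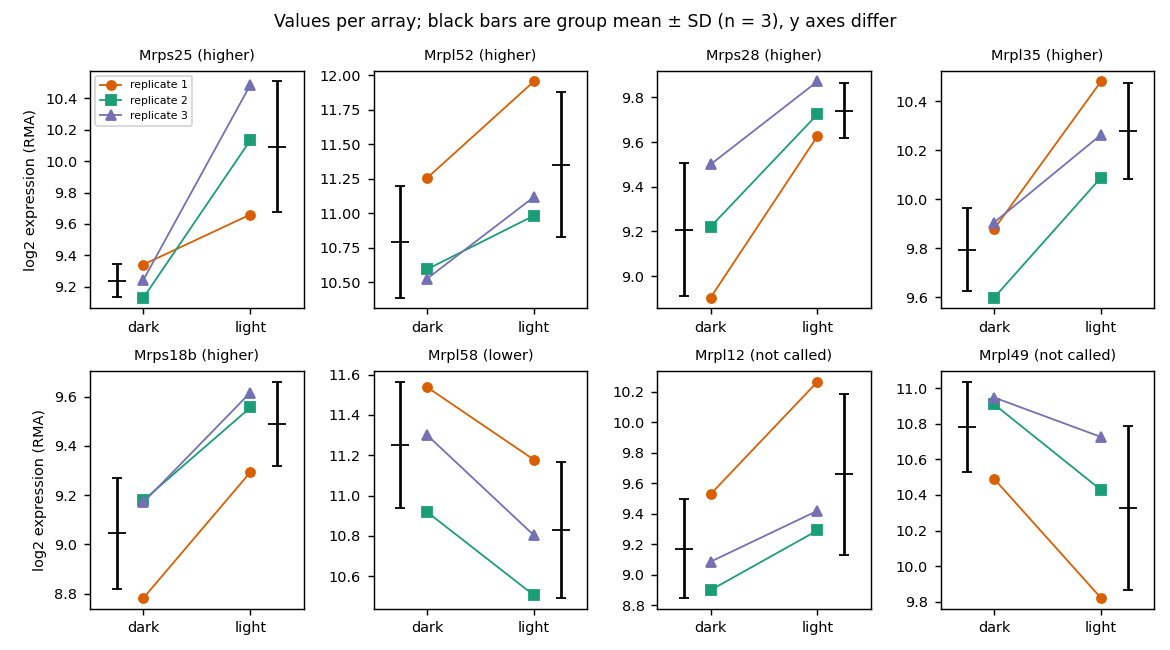
Log2 expression in each array (y axis, ranges differ between panels) of the 6 called genes and of Mrpl12 and Mrpl49, the next 2 by p-value. Lines join dark-adapted and light-damaged arrays of the same replicate number, and black bars are group means ± SD (n = 3). All lines of a panel slope the same way, and in Mrpl52, Mrpl58, Mrpl12 and Mrpl49 the groups overlap while the replicates stand at different levels.

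The 6 calls were close to the threshold, with adjusted p-values between 0.0307 and 0.0471. Without replicate 1 all 6 were still called. Without replicate 2 only Mrpl52 was (adjusted p = 0.032), and without replicate 3 none was, the adjusted p-values being 0.114 to 0.300. Over all 18193 genes these fits called 1245, 677 and 228, against 908 with all replicates. Each of these fits has 1 residual degree of freedom in place of 2. Without replicate 2 the calls went from 908 to 677 over all genes and from 6 to 1 among the members. Why the member calls were lost was not tested. Without replicate 1 the difference of Mrps25 was 1.12, and without replicate 3 it was 0.66.

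The promoters of the called genes are shown because transcription factors of the NRF1, ETS and YY1 families are known regulators of nuclear genes for mitochondrial proteins. The sequences are from RefSeq (GRCm38.p6), run from 170 bases before to 30 bases after the annotated start, 5′ to 3′ on the gene's strand, and capitals mark the letters CGGAAG, the ETS core, on either strand. Of the 6 called genes, 5 matched an entry in the sequence table. Mrpl52 lies on the plus strand (chr14:54426739-54426938), Mrps18b on the minus strand (chr17:35916411-35916610), Mrpl58 on the plus strand (chr11:115403582-115403781), and Mrps25 and Mrpl35 on the minus strand (chr6:92183994-92184193 and chr6:71823755-71823954).
Mrpl52: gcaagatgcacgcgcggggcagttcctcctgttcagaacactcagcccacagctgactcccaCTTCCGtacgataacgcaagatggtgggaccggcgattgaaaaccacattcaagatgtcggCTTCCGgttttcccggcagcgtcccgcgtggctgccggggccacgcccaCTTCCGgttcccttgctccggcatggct
Mrps18b: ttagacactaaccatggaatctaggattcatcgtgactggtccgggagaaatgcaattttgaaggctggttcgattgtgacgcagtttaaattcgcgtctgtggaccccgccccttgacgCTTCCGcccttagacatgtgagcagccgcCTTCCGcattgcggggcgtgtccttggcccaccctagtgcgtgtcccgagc
Mrpl58: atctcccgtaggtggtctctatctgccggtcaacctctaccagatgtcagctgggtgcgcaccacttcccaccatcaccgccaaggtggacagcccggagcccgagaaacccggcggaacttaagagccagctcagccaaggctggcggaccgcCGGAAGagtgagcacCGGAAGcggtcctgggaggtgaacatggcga
Mrps25: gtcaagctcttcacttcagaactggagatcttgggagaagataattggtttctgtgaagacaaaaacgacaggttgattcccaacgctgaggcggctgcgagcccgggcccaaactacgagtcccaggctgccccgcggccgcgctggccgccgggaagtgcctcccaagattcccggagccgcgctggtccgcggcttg
Mrpl35: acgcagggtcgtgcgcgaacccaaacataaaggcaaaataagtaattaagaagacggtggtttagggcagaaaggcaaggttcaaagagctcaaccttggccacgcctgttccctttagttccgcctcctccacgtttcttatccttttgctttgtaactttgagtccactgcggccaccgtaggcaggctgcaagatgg
The letters CGGAAG occur 3 times in the window of Mrpl52 and 2 times in those of Mrps18b and Mrpl58. They do not occur in the windows of Mrps25 and Mrpl35. The NRF1 letters (GCGC, any base, TGCGC) and the YY1 letters AAGATGGC do not occur in any of these 5 windows. The window of Mrpl35 ends in AAGATGG, so it cannot show whether the YY1 letters run across its end.

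Over the group, 67 of the 76 genes had a promoter in the table, the first entry of each gene being used. The ETS letters were in 33 of the 67 (49.3%), against 13.9% of all 27025 genes with a promoter and 20.5% of those measured on the array. The NRF1 letters were in 12 (17.9%, against 4.1% and 6.9%) and the YY1 letters in 6 (9.0%, against 1.8% and 2.3%). The SP1 letters GGGCGG were in 30 (44.8%, against 32.3% and 49.4%) and the TATA letters TATAAA in 3 (4.5%, against 9.7% and 6.8%). Both strands were searched, and the end of CGGAAG can also be the start of AAGATGGC, so that a stretch can hold both. Among the 29 genes with a promoter that were higher in 3 of 3 pairs, 16 held the ETS letters and 4 the NRF1 letters. Among the other 38 members 17 held the ETS letters and 8 the NRF1 letters, and this split was not tested.

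Over the group, small positive differences outnumbered negative ones. The median difference was 0.079, or 1.06-fold, against 0.000 over all genes, and the middle of the group ran from -0.02 to 0.17 (quartiles). Of the 76 genes, 53 (69.7%) had a difference above 0, against 49.9% of all genes. The median was 0.080, 0.060 and 0.093 in pairs 1, 2 and 3, so it was above 0 in each pair. The mean over the 76 genes was 9.76, 9.76 and 9.91 in the dark-adapted arrays and 9.85, 9.84 and 10.02 in the light-damaged arrays, and these ranges overlap. A difference within 0.2 of 0 was found for 73.7% of the members and for 72.7% of all genes.

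Read by pairs, 35 of the 76 (46.1%) were higher after light in 3 of 3 pairs, against 19.9% of all genes. Only 5 (6.58%) were lower in 3 of 3 pairs, against 20.7% of all genes, namely Mrpl49, Mrpl58, Mrpl44, Mrps33 and Mrpl27. The other 36 were mixed. The light-damaged arrays lay wholly above the dark-adapted ones for 11 genes (14.5%, against 6.61% of all genes) and wholly below for 0 (against 3.72%). Those 11 were Mrps25, Mrps28, Mrpl35, Mrps18b, Mrps10, Mrpl33, Mrpl38, Mrps2, Mrps27, Mrpl3 and Mrpl51. At an unadjusted p under 0.05 there were 16 members (21.1%), 14 higher and 2 lower, against 19.0% of all genes, 9.48% higher and 9.57% lower.

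**Figure D2:**
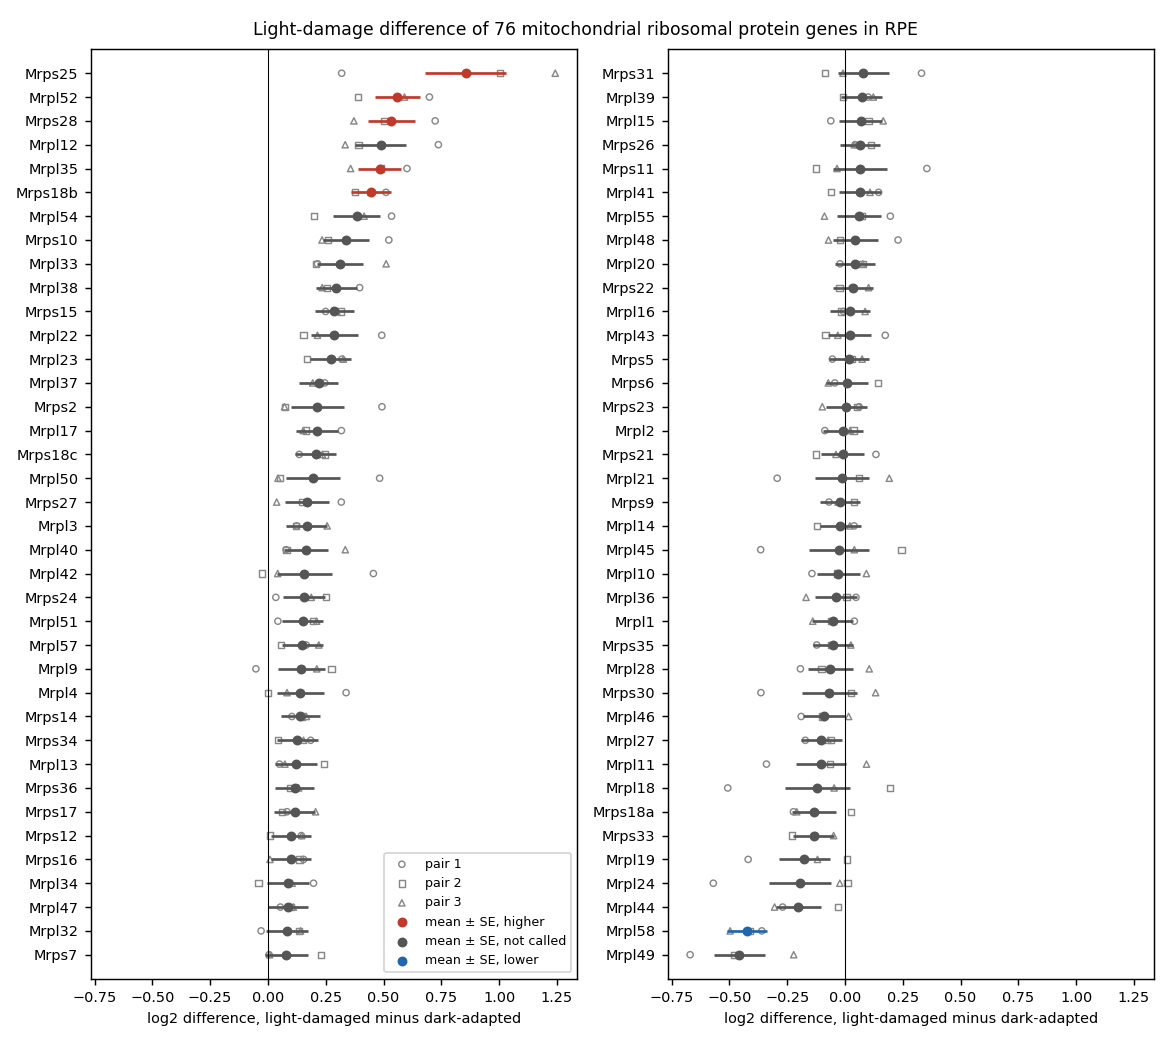
Log2 difference of light-damaged minus dark-adapted (x axis) for each of the 76 genes (y axis, ordered by mean difference). Open symbols are the 3 pairs, filled points the mean with bars of 1 SE from limma with the replicate block, coloured by call. Mrps25 has the largest difference (0.86) and the widest spread between pairs among the called genes, and 53 of the 76 means lie above 0.

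Large subunit proteins with bacterial counterparts numbered 29, of which 17 had a difference above 0 and 1, Mrpl35, was called. Mrpl12, which forms the flexible stalk that recruits translation factors and in human cells also binds the mitochondrial RNA polymerase, came nearest to a call without passing. It measured 9.53, 8.90 and 9.09 in dark-adapted and 10.27, 9.29 and 9.42 in light-damaged arrays, with a difference of 0.49 ± 0.11 (limma adjusted p = 0.0598, n = 3 pairs). The stalk base proteins Mrpl10 and Mrpl11 had differences of -0.03 and -0.10. Around the exit tunnel, Mrpl22 (0.29), Mrpl23 (0.27) and Mrpl17 (0.21) were higher in 3 of 3 pairs and did not pass (adjusted p = 0.193, 0.162 and 0.268), while Mrpl24 had -0.19 and Mrpl47 0.09. The stalk base and tunnel genes were chosen after their values were seen.

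The 20 mitochondria-specific large subunit proteins, with Mrps30 and Mrps18a counted here by the place of their products, held differences from -0.46 to 0.56. Mrpl49 had the lowest value of all 76 genes, going from 10.49, 10.91 and 10.95 to 9.82, 10.43 and 10.73. Its groups overlapped, its difference was -0.46 ± 0.11 and it did not pass (limma adjusted p = 0.0755, n = 3 pairs), and its second probe set gave -0.05. Mrpl54 had 0.38 ± 0.10 (adjusted p = 0.0938) and Mrpl38, at the central protuberance of the large subunit, 0.30 ± 0.09 (adjusted p = 0.134). Mrpl38 was measured by an s_at probe set, which can bind related transcripts, and its other 2 probe sets gave -0.04 and -0.08. Mrpl45, which ties the ribosome to the inner membrane at the tunnel exit, had -0.03.

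In the small subunit, 14 of 16 proteins with bacterial counterparts and 8 of 10 mitochondria-specific ones had a difference above 0, with medians of 0.108 and 0.072. Mrps10 (0.34 ± 0.10, limma adjusted p = 0.124, n = 3 pairs) and Mrps15 (0.29 ± 0.09, adjusted p = 0.129) were higher in 3 of 3 pairs and did not pass. A second probe set of Mrps15 gave 0.25 and the dimmest 0.00. Mrps12, a protein of the decoding centre, had 0.10. Mrps12 and Mrpl45 were chosen after their values were seen. Mrps36, which keeps its ribosomal name although mammalian work places its product in the 2-oxoglutarate dehydrogenase complex, had 0.12 and did not pass. The classes were not tested against each other.

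Probe sets of a member did not always go the same way. The 76 genes had 156 probe sets, and 42 genes had more than 1. Of the 80 further probe sets, 32 had the opposite sign to the one used, and in 1 of these, of Mrpl3, the unadjusted p was under 0.05 (-0.25 against 0.17). For the called genes 7 of 8 further probe sets had the same sign. Levels are not compared between genes, since each probe set has its own response.

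The replicates differed by more than the groups for most of these genes. Both arrays numbered 1 differed from the other 4 in RNA quality controls. Their Gapdh control signal was higher at the 3′ end than at the 5′ end by 2.45 and 2.48 (log2), against 1.54 to 1.80. Their 18S rRNA control mean was 11.38 (dark-adapted) and 10.72 (light-damaged) against 12.98 to 13.30. This control was also lower in the light-damaged array of each pair, at 13.24 and 13.06 in pair 2 and 13.30 and 12.98 in pair 3, and its part in the differences of the members was not tested. For 53 of the 76 genes (69.7%, against 78.0% of all genes) the replicate 1 arrays differed from the rest by more than light-damaged from dark-adapted arrays did. Mrpl19 was lowest there, at 7.71 and 7.29 in the replicate 1 arrays against 9.03 to 9.22 in the others, and Mrpl18, Mrpl45 and Mrpl32 were lower by 1.18, 1.00 and 0.99. Mrpl52, Mrpl34 and Mrpl12 were higher in the replicate 1 arrays by 0.80, 0.78 and 0.72. The difference of the replicate 1 arrays was larger than that between the groups for Mrpl52 and for Mrpl58 (0.48), whereas the rises of Mrps25, Mrps28, Mrpl35 and Mrps18b were larger than theirs (-0.25, -0.31, 0.22 and -0.34).

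**Figure D3:**
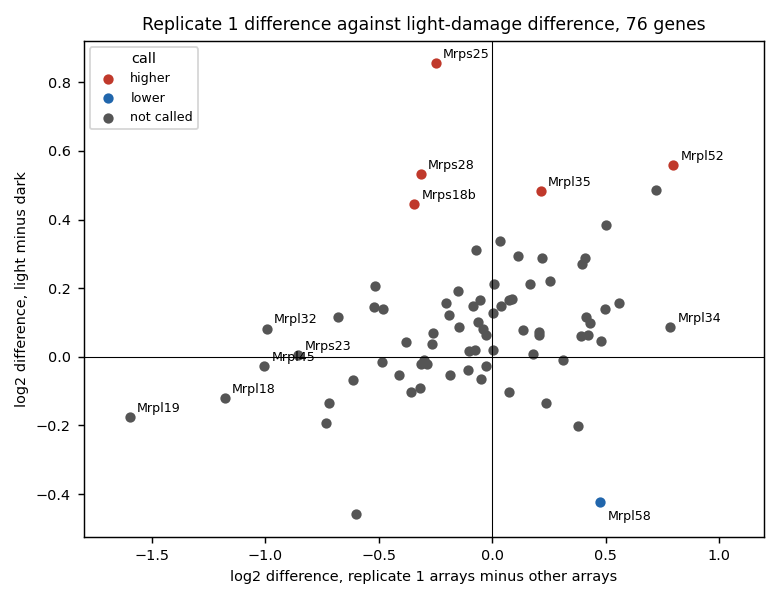
Light-damage difference (y axis, log2) against the difference of the replicate 1 arrays from the other 4 arrays (x axis, log2) for the 76 genes, coloured by call. The x axis spans more than the y axis: Mrpl19 lies at -1.60 on it, while its light-damage difference is -0.18.

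Other genes of mitochondrial translation are given from lists of their roles. Of the 4 measured ribosomal subunits with other symbols all were higher in 3 of 3 pairs, against 19.9% of all genes, and none passed. Gadd45gip1 had 0.40 ± 0.10 and Dap3 0.31 ± 0.09 (limma adjusted p = 0.0766 and 0.103, n = 3 pairs). None of 26 genes of ribosome assembly and rRNA modification, 13 translation factors, 19 mitochondrial aminoacyl-tRNA synthetase genes and 16 genes of mitochondrial transcription and RNA processing was called. Their medians were 0.024, 0.055, 0.013 and 0.046. At an unadjusted p under 0.05 there were 2, 2, 2 and 3 of them, in the same order. These were 7.69%, 15.4%, 10.5% and 18.8% of the lists, against 19.0% of all genes.

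Among 8 regulators of nuclear mitochondrial genes, 1 rose and 2 fell, against 3.07% of all genes rising and 1.92% falling. The called regulators were all PGC-1 family coactivators. Pprc1, the PGC-1-related coactivator, went from 7.87, 8.37 and 8.58 to 8.82, 9.46 and 9.50, without overlap, a rise of 0.99 ± 0.09 or 1.98-fold (limma adjusted p = 0.0041, n = 3 pairs). Ppargc1b (PGC-1 beta) went from 10.96, 11.31 and 11.40 to 10.19, 10.23 and 10.48, also without overlap, and fell by 0.92 ± 0.10 (adjusted p = 0.0065). Ppargc1a (PGC-1 alpha) fell by 0.81 ± 0.14 (adjusted p = 0.0311), with overlapping groups. Its probe set, an x_at one, was the brightest of 5, and the others gave -0.90, -0.53, -0.24 and -0.14. The transcription factor genes Nrf1, Gabpa and Yy1 had -0.22, -0.28 and 0.01 and did not pass. Pprc1, Ppargc1b and Ppargc1a were all called without replicate 1, without replicate 2 and without replicate 3, and none was called without the block (limma adjusted p = 0.426, 0.176 and 1).

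Values of related machinery are given side by side, and differences between the sets were not tested. Of 46 cytosolic ribosomal protein genes 8 rose and 0 fell (17.4%, against 3.07% of all genes rising and 1.92% falling). Without the block none was called (15 had an unadjusted p under 0.05, against 5.94% of all genes). Their median was 0.235, and 44 were above 0. Of 80 nuclear subunits of oxidative phosphorylation none was called in limma with the block, and the median was -0.021. An unadjusted p under 0.05 was found for 9 of them (11.2%, against 19.0% of all genes), 2 higher and 7 lower. The mitochondrial ribosomal proteins, with a median of 0.079, lay between them.

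**Figure D4:**
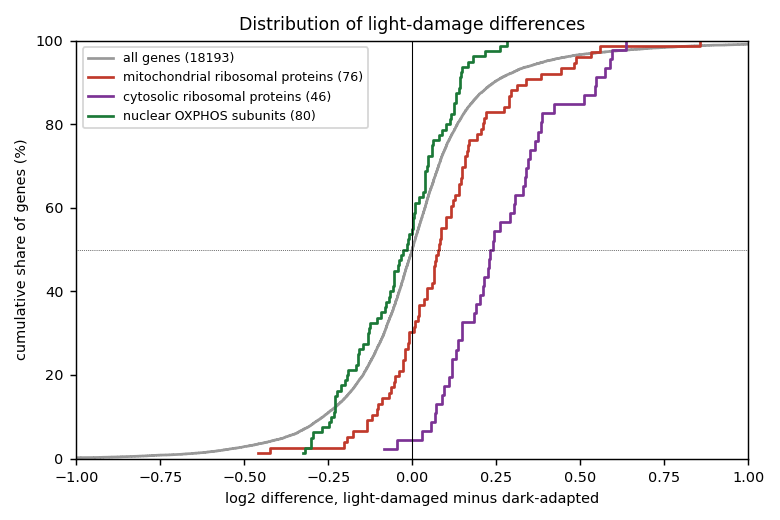
Cumulative share of genes (y axis, %) by log2 difference of light-damaged minus dark-adapted (x axis, drawn from -1 to 1). The curve of the 76 mitochondrial ribosomal protein genes crosses the middle at 0.079, between that of 80 nuclear oxidative phosphorylation (OXPHOS) subunits (-0.021) and that of 46 cytosolic ribosomal protein genes (0.235), with all 18193 genes at 0.000.

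Markers of other cell types moved with the light-damage comparison. Of 14 macrophage and microglia markers 13 rose, and the mean log2 level of the list was 9.46 to 9.89 in dark-adapted and 10.38 to 10.83 in light-damaged arrays, with Cd68 and Cd53 higher by 2.11 and 1.17. Of 14 photoreceptor markers 7 fell and none rose, at 11.77 to 12.40 against 11.10 to 11.87, with differences of -1.72 for Opn1sw and -0.92 for Arr3. RPE markers had a mean level of 12.60 to 12.91 against 12.10 to 12.47, and 2 of 12, Lrat and Slc16a8, fell. All 12 RPE markers had a difference below 0 (median -0.389). Of these, 11 were lower in 3 of 3 pairs, against 20.7% of all genes. Of 8 neutrophil markers 2 rose (mean level 7.24 to 7.53 against 7.65 to 8.18), as did 2 of 8 of pericytes and fibroblasts, 1 of 8 of endothelium and 1 of 8 of Müller glia. The Müller glia list as a whole did not rise, with 5 of 8 differences below 0 and a median of -0.092. Over all genes 3.07% rose and 1.92% fell. Fewer cells of a type and less RNA per cell cannot be told apart in such samples. None of these marker calls was made without the block. The part of these cells in the differences of the mitochondrial ribosomal proteins was not tested.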

How the data were processed

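The authors deposited log2 expression values per probe set for 6 Affymetrix arrays, made with RMA (background correction, normalization across arrays, summary of probes) per the submitters' processing notes. Which RMA version was used, and on which arrays jointly, is not stated in the sources used here. The deposited log2 values ran from 3.72 to 14.82. The scale was read from the values, and they carry no detection calls or depth, so the number of arrays limits the precision.

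Of 45101 probe sets, 64 were controls and 34945 had exactly 1 gene symbol in the platform annotation, which gave 18193 genes. The comparison used lmFit and eBayes of limma 3.58.1 (R 4.3.3, two-sided tests) on the log2 values, with the replicate number as a block and 2 residual degrees of freedom. The labels number the replicates in both groups without saying what a number shares. The rule for the members named the replicate number as pair, and the fit followed it. As a check, after subtracting group means, arrays sharing a number correlated across genes at 0.888, 0.624 and 0.859. The crossed correlations of replicates 2 and 3 were 0.654 and 0.608, so the check sets replicate 1 apart but does not tell the pairing of 2 and 3 from the crossed one. The fit was also run on simulated data with replicate effects built in and planted differences larger than those of the called members. That run therefore does not bear on these calls or on the pairing.

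The members and gene lists were chosen with earlier results of these data known. Named genes are the called members, those with the smallest p up to 12, the Mrps18 paralogs and the called genes of the other lists, at most 4 a list; cell type markers are named by up to 2 a list. Gadd45gip1, Dap3, Nrf1, Gabpa and Yy1 were named after their values were seen. Structural classes follow the accepted nomenclature of the mammalian mitochondrial ribosome. Alternatives covered the block, left-out replicates, normalization, a filter at a mean log2 value of 6, a pseudocount of 16, probe set choice, an eBayes trend and array weights.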

Additional observations from a re-analysis of the deposited data

How the results depend on the processing

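The count of 5 rising and 1 falling member rested on the replicate block. With no replicate block limma called 0 rising and 0 falling members, 9 genes in all and 0 genes of the 6 pathway lists, against 908 genes and 3 list genes with the block. The replicate numbers were taken to pair the arrays, so this is a fit that counts differences between replicates as noise. Leaving out a replicate in turn gave 0 to 5 rising members, 0 to 1 falling, 228 to 1245 genes in all, 3 to 5 list genes and a member median of 0.075 to 0.080. Quantile normalization called 3 rising and 0 falling members, and the call of Mrpl58 was also lost (0 falling) when x_at and s_at probe sets were avoided and with an eBayes trend. Its own probe set and its difference of -0.42 were the same in the latter 2, with adjusted p = 0.0505 and 0.0577. At an unadjusted p under 0.05, members numbered 18, 15 and 16 under these 3 settings. The main fit had 16 such members, and 19.0% of all genes. At the adjusted threshold the 3 settings called 4.94%, 4.55% and 4.59% of all genes, against 4.99% in the main fit. Array weights called 9 rising members, 9 list genes and 1875 genes in all (10.3%). The member median was 0.096 with quantile normalization, 0.062 with median centring and 0.044 with the mean of all probe sets. It stayed above 0 in all 12 alternatives, but not all of them could move it. Leaving out the block, the eBayes trend and the filter at 6 leave the difference of every member as it was. The median of 0.079 under these settings was therefore fixed in advance. Avoiding s_at probe sets turned Mrpl38 to -0.0817, and Ppargc1a was not called there (-0.14) or with the mean of all probe sets (-0.52). Mrpl52 kept its call in 10 of 12 alternatives, Mrps28 and Mrpl35 in 8, Mrps25 and Mrps18b in 7 and Mrpl58 in 6. The causes were not tested. RMA compresses differences near background, which limits dim probe sets.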
